A study of Homo sapiens with 5 samples.

Results

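Vascular endothelial growth factor A (VEGFA), its relative VEGFB, the receptors FLT1 and KDR, the co-receptors NRP1 and NRP2, and the vascular-type surface genes PECAM1 and ENG were described in leukaemia cells from brain and from spleen. These 8 genes were found by their Ensembl identifiers among the 65217 human gene identifiers of the deposited count table, and all 8 were in it. Splice forms of VEGFA and the full-length and soluble forms of FLT1 were read from the transcript estimates of each library.

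RNA was sequenced from REH, an established human line of acute lymphoblastic leukaemia of precursor B cells with the ETV6-RUNX1 (TEL-AML1) fusion. REH cells, kept in culture at 21% oxygen, were transplanted into NSG mice (NOD.Cg-PrkdcscidIl2rgtm1Wjl/SzJ) aged 6 to 10 weeks, which lack mature lymphocytes. The brain group held 3 libraries of cells from the leptomeninges (the membranes around the brain) and the spleen group held 2 libraries of cells from the spleen. Each library pooled RNA of 5 mice, the transplantation was done on 3 occasions, and the submitters left out the spleen library of the third for quality. Cells of both sites carried the same fusion, came from the same line and host strain, received no drug that the labels name, and were purified on a Ficoll gradient. Because a library is a pool, p-values measure the spread between pools and occasions and not between animals.

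VEGFA is a secreted growth factor, best known for driving the growth and permeability of blood vessels, and its mRNA is known to rise when oxygen is low. It binds the receptor tyrosine kinases FLT1 (VEGFR1) and KDR (VEGFR2), while VEGFB and placental growth factor (PGF) bind FLT1. FLT1 is also made as soluble forms that keep the ligand-binding part, lack the kinase and act as a trap for the ligand. Neuropilins NRP1 and NRP2 hold VEGF for its receptors and also bind class 3 semaphorins.

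Library totals ran from 38387991 to 48656936 estimated counts on human genes in brain and were 46005806 and 48764202 in spleen. Mouse transcripts took 5.70%, 2.58% and 2.64% of all estimates in brain replicates 1 to 3 and 6.33% and 8.87% in spleen replicates 1 and 2. The mean mouse share was 3.64% in brain and 7.60% in spleen, with p = 0.2 by an exact two-sided permutation test over libraries whose smallest possible p is 0.1. The human B cell precursor markers summed to between 8438 and 8514 CPM (counts scaled to a common library size) in brain and to 9299 and 8845 CPM in spleen. Of these 12 markers 11 were tested, and VPREB1, part of the surrogate light chain, had 0 counts in every library. RAG1, a recombinase gene, rose (log2 fold change 0.55, SE 0.10), CD79A, part of the B cell receptor, fell (-0.61, SE 0.12), and the other 9 were not past the threshold. Over all tested genes 6.01% were called higher and 3.5% lower. RAG1 lost its call without brain replicate 1 or 2, and CD79A without brain replicate 1 (highest adjusted p 0.0838 and 0.0816 by edgeR).

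In cells from brain, VEGFA, FLT1, PECAM1, NRP1 and ENG were higher than in cells from spleen, 0 of the 8 genes were lower, VEGFB and NRP2 were not past the threshold, and KDR had 3 counts over all libraries. VEGFA was 20.0-fold higher, PECAM1 9.40-fold, FLT1 8.20-fold, NRP1 1.98-fold and ENG 1.96-fold. A gene was called where its p from the quasi-likelihood test of edgeR, adjusted by Benjamini and Hochberg's method over 20419 tested genes, was under 0.05. Of the 7 genes tested, 5 were called higher, where 6.01% of all tested genes were called higher, 3.5% lower and 9.51% either way. The members and the lists below were chosen with earlier results of these data known, so this contrast is not a test. For these 5 genes all brain libraries were above both spleen libraries, as for 23.3% of all tested genes, and below for VEGFB, as for 19.5% of all. The lowest count of a tested member in any library was 54, so no member passed the filter on low counts through 1 site alone. These are bulk libraries, so more cells that express a gene and more RNA per cell cannot be told apart.

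**Figure D1:**
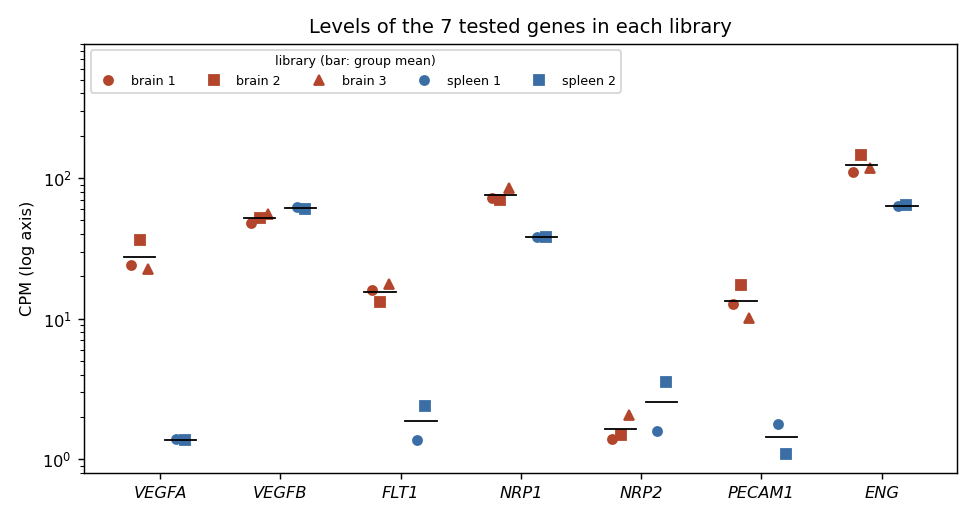
CPM of the 7 tested genes on a log axis, with brain libraries left of spleen libraries, a point for each library and a bar at the group mean. VEGFA, FLT1, PECAM1, NRP1 and ENG are higher in every brain library than in either spleen library, VEGFB is lower in every brain library, and NRP2 overlaps.

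VEGFA (ENSG00000112715, GRCh38 chr6:43770184-43786487, plus strand) had 24.0, 36.4 and 22.5 CPM in brain replicates 1 to 3 and 1.39 and 1.37 CPM in spleen replicates 1 and 2. Those CPM rest on 937, 1800 and 1014 estimated counts in brain and on 61 and 69 in spleen. The lowest brain library was far above both spleen libraries, which hardly differed from each other. The mean was 27.6 ± 7.60 CPM in brain (SD, n = 3) and 1.38 ± 0.0149 CPM in spleen (SD, n = 2). The log2 fold change was 4.32 (SE 0.26, 95% interval 3.74 to 4.91), with an adjusted p of 8.34e-05 by edgeR. It ranked 36 among the log2 fold changes of the 20419 tested genes, counted from the highest.

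VEGFA transcripts differ in which exons they keep: the exons late in the coding sequence set how firmly the protein is held on heparan sulphate outside the cell. Only a part of the VEGFA count could be assigned to such forms. Transcripts that GENCODE 44 names held 44.5%, 50.1% and 73.4% of the VEGFA count in brain and 90.4% and 85.7% in spleen, and the remaining identifiers could not be assigned to a form. Coding transcripts that were named held 19.6%, 13.1% and 36.7% of the count in brain replicates 1 to 3 and 72.0% and 17.7% in spleen replicates 1 and 2. Named retained intron transcripts, which keep an intron and are not annotated as coding, held 24.9%, 37.0% and 36.7% in brain and 18.4% and 68.0% in spleen. For retained introns the spleen libraries lay at either side of all brain libraries, and the coding share of spleen replicate 2 lay within the brain range. The spleen shares rest on 61 and 69 counts.

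Among named coding VEGFA transcripts, VEGFA-205, which keeps exon 7, had 102 and 131 estimated counts in brain replicates 1 and 3, 1.0 in brain replicate 2 and, rounded to whole counts, 0 in both spleen libraries. VEGFA-225, coding for a form of 165 residues after the signal peptide, had 33.9, 122 and 12.5 in brain and 0 in both spleen libraries. VEGFA-206, coding for the short form of 121 residues, had 0, 31.0 and 162 in brain and 37.4 and 4.2 in spleen. VEGFA-201, whose annotated coding sequence is incomplete, had 48.1, 69.3 and 59.7 in brain and 6.5 and 8.0 in spleen. No form kept its rank in all brain libraries, and VEGFA-206 overlapped between the sites. Usage of a transcript, its log2 fold change relative to that of its gene, was tested with edgeR's diffSpliceDGE over 65075 human transcripts, of which 0.344% were called. Of 7 VEGFA transcripts tested for usage, 0 were called and 0 had an unadjusted p under 0.05. In the test of transcript level 0 of 73105 transcripts were called, and 6 of the 7 VEGFA transcripts had an unadjusted p under 0.05, as did 8.13% of all transcripts tested.

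**Figure D2:**
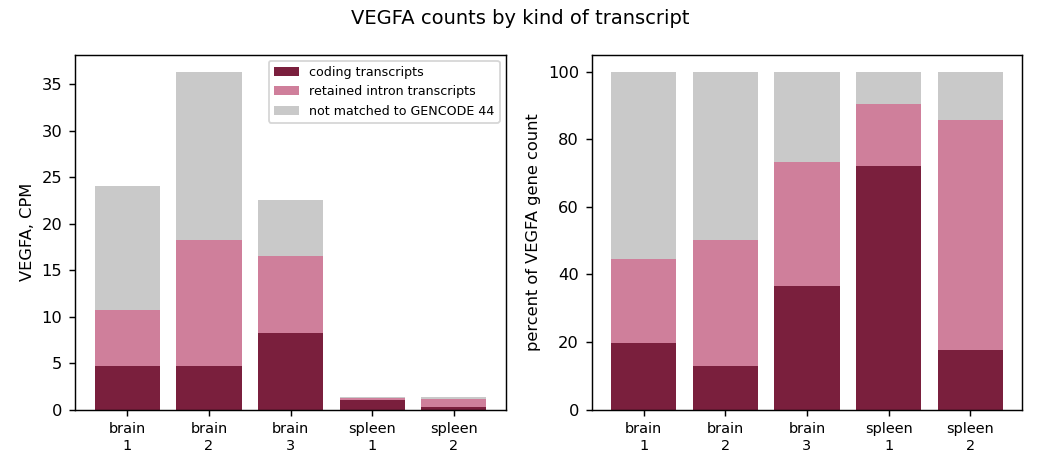
VEGFA count by kind of transcript in the 3 brain and 2 spleen libraries, as CPM (left) and as percent of the VEGFA count (right). Each kind of transcript is larger in CPM in brain libraries than in spleen libraries, and the shares differ among libraries of the same site.

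VEGFB (ENSG00000173511, chr11:64234584-64239264, plus strand), a ligand of FLT1, had 48.1, 52.2 and 55.5 CPM in brain and 61.9 and 59.8 CPM in spleen. All brain libraries lay below both spleen libraries, by a small margin. The mean was 52.0 ± 3.70 CPM in brain and 60.9 ± 1.44 CPM in spleen, with a log2 fold change of -0.23 (SE 0.10, 95% interval -0.45 to -0.0038). The adjusted p was 0.189 by edgeR, so VEGFB was not called. VEGFB-201, coding for the form of 186 residues, took 39.6%, 47.2% and 38.3% of VEGFB TPM, a level scaled for transcript length and depth, in brain and 36.1% and 43.2% in spleen. VEGFB-202, coding for the heparin-binding form of 167 residues, took 21.6%, 17.7% and 22.7% in brain and 22.0% and 18.8% in spleen. The shares of both forms overlapped between the sites. Of the ligand list of 5 genes, VEGFA was called higher, VEGFC and VEGFD, ligands of the lymphatic receptor FLT4, had 0 counts in every library, and PGF was not past the threshold. PGF had 2.89, 3.96 and 2.80 CPM in brain and 1.80 and 1.65 CPM in spleen, with a log2 fold change of 0.90 (SE 0.24, adjusted p 0.0506 by edgeR). With no filter on low counts its adjusted p was 0.0204, and by DESeq2 0.0183. Under 11 of the 14 alternatives tried, PGF was again not past the threshold.

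FLT1 (ENSG00000102755, chr13:28300346-28495145, minus strand), the high-affinity VEGFA receptor, had 16.0, 13.1 and 17.6 CPM in brain and 1.37 and 2.40 CPM in spleen. Those values rest on 625, 650 and 791 estimated counts in brain and 60 and 121 in spleen. The lowest brain library was more than 5 times the higher spleen library. The mean was 15.6 ± 2.25 CPM in brain (SD, n = 3) and 1.88 ± 0.731 CPM in spleen (SD, n = 2), with a log2 fold change of 3.04 (SE 0.25, 95% interval 2.46 to 3.61). The adjusted p was 0.000357 by edgeR, and the fold change ranked 91 from the highest. The pseudogene FLT1P1 had 0 counts in every library.

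The FLT1 transcripts part ways at the ends of exon 13 and exon 14, and the coding sequence on either side of each fork is shown. Sequence beyond what is printed also enters the estimates: FLT1-207 is 6453 bases long, of which 2061 are coding. Lower case marks the 30 coding bases that the pair shares and capitals mark what follows in that form, from GRCh38 with GENCODE 44, minus strand, 5′ to 3′. The full-length transcript FLT1-201 (1338 codons) goes on at chr13:28384972-28385031. The soluble FLT1-207 (687 codons) runs on into intron 13 at chr13:28389704-28389795, where its coding sequence ends. After exon 14 the full-length form goes on at chr13:28357626-28357685, while the soluble FLT1-204 (733 codons) takes another last exon at chr13:28368581-28368663.
FLT1-201 after exon 13: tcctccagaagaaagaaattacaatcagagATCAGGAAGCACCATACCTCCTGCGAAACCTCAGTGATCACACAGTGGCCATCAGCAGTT
FLT1-207 into intron 13: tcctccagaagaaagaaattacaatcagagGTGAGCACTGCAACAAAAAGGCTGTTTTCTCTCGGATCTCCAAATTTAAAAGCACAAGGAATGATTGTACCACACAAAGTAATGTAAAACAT
FLT1-201 after exon 14: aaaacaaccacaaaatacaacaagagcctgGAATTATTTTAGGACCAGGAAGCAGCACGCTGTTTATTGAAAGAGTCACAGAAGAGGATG
FLT1-204 into its last exon: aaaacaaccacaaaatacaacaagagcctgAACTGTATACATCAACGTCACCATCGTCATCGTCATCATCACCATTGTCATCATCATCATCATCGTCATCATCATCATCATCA

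Most FLT1 estimates were on the soluble forms at both sites. FLT1-207, the intron 13 form, had 393, 422 and 536 estimated counts in brain and 29.4 and 50.6 in spleen. FLT1-204, with the other last exon, had 107, 97.5 and 82.1 in brain and 23.6 and 50.6 in spleen. FLT1-201, the full-length receptor, had 125, 128 and 173 in brain and 4.8 and 19.3 in spleen. All 3 forms were higher in every brain library than in either spleen library. Per length, the 2 soluble forms together took 84.8%, 83.2% and 82.0% of FLT1 TPM in brain and 88.5% and 90.2% in spleen. The full-length form took 15.2%, 15.1% and 18.0% of FLT1 TPM in brain and 4.66% and 9.68% in spleen. By estimated counts its mean share was 20.5% in brain and 12.0% in spleen, against 16.1% and 7.17% by TPM.

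The shift in proportions was not past the threshold. The usage of FLT1-201 had a log2 fold change of 0.64, with an unadjusted p of 0.418 and an adjusted p of 1 by edgeR's diffSpliceDGE. FLT1-204 had a usage log2 fold change of -1.58, with an unadjusted p of 0.0425 and an adjusted p of 1, and FLT1-207 one of 0.54 with an adjusted p of 1. FLT1-204 took 32.0%, 28.4% and 20.9% of FLT1 TPM in brain and 56.9% and 62.3% in spleen, with no overlap. Such gaps in share were not counted over the transcripts of all genes. The spleen estimates rest on 60 and 121 counts in all, and kallisto shares reads of the common exons among the forms by a model.

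**Figure D3:**
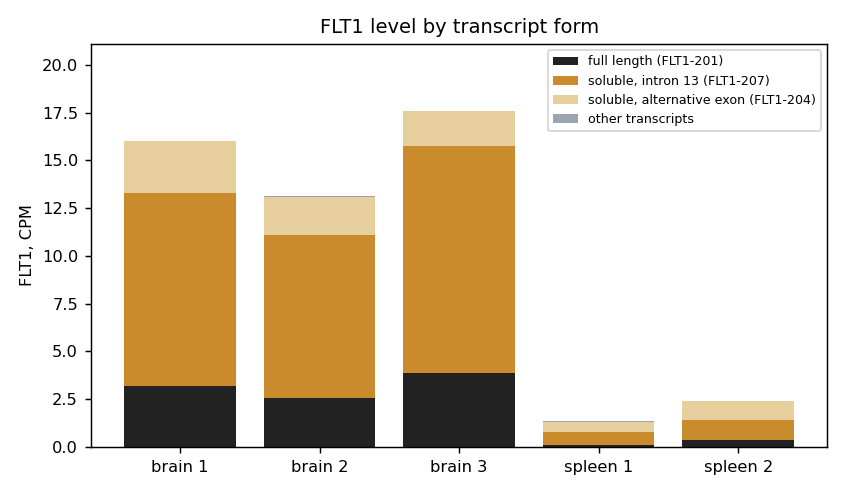
FLT1 CPM in each library, split by the share of estimated counts on the full-length transcript, the soluble intron 13 transcript, the soluble transcript with another last exon, and other transcripts. The soluble intron 13 form is the largest piece in every brain library, and all bars of brain stand above those of spleen.

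KDR (ENSG00000128052, chr4:55078481-55125595, minus strand), the main signalling receptor for VEGFA in endothelium, had 0, 0 and 3 estimated counts in brain replicates 1 to 3 and 0 in both spleen libraries. It did not pass the filter on low counts and was not tested. A count of 0 allows up to 3 counts, which is 0.0769 and 0.0606 CPM in brain replicates 1 and 2 and 0.0684 and 0.0595 CPM in spleen replicates 1 and 2, for counting error only. FLT4, the receptor for VEGFC and VEGFD, was the only further receptor on the list. It had 14.04, 29.1 and 19.4 CPM in brain and 4.72 and 4.34 CPM in spleen, with no overlap. FLT4 rose by a log2 fold change of 2.21 (SE 0.29, adjusted p 0.00281 by edgeR), and with the mouse share as a covariate its adjusted p was 0.158. Of the 5 receptors and co-receptors, 4 were tested, FLT1, FLT4 and NRP1 were called higher and 0 lower. Their median log2 fold change was 1.59, against 0.0066 over all tested genes, of which 6.01% were called higher and 3.5% lower. Since this list was chosen with earlier results of these data known, that contrast is not a test.

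NRP1 (ENSG00000099250, chr10:33177492-33336262, minus strand) had 72.1, 69.3 and 85.6 CPM in brain and 38.3 CPM in each spleen library. The lowest brain library lay well above the spleen libraries, which were alike to 3 digits. The mean was 75.7 ± 8.71 CPM in brain and 38.3 ± 0.0560 CPM in spleen, with a log2 fold change of 0.98 (SE 0.12, 95% interval 0.72 to 1.25, adjusted p 0.00180 by edgeR). With the mouse share of each library as a covariate the log2 fold change was 0.90 and the adjusted p 0.121. Whether host RNA has a part in the result was not tested beyond that fit. NRP1-206, a membrane-anchored form of 923 codons, took 40.6%, 41.1% and 30.9% of NRP1 TPM in brain and 26.5% and 42.8% in spleen. NRP1-204, a short form of 644 codons, took 1.61%, 6.53% and 0.536% in brain and 1.35% and 3.25% in spleen. Of 9 NRP1 transcripts tested for usage, 0 were called and 0 had an unadjusted p under 0.05.

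NRP2 (ENSG00000118257, chr2:205681990-205798133, plus strand), the co-receptor for VEGFC and VEGFA, had 1.38, 1.495 and 2.07 CPM in brain and 1.59 and 3.55 CPM in spleen. The sites overlapped, and spleen replicate 2 stood above the other libraries. The mean was 1.65 ± 0.366 CPM in brain and 2.57 ± 1.38 CPM in spleen, with a log2 fold change of -0.64 (SE 0.35, 95% interval -1.43 to 0.14, adjusted p 0.286 by edgeR). Without spleen replicate 2 the sign turned, with a log2 fold change of 0.046 and an adjusted p of 0.959.

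PECAM1 (ENSG00000261371, CD31, chr17:64319415-64413776, minus strand) is an adhesion receptor of endothelium, platelets and leukocytes that carries inhibitory tyrosine motifs. It had 12.7, 17.4 and 10.2 CPM in brain and 1.78 and 1.09 CPM in spleen, from 494, 861 and 459 estimated counts in brain and 78 and 55 in spleen. All brain libraries were far above both spleen libraries. The mean was 13.4 ± 3.66 CPM in brain and 1.43 ± 0.485 CPM in spleen, with a log2 fold change of 3.23 (SE 0.30, 95% interval 2.55 to 3.92). The adjusted p was 0.000601 by edgeR, and the fold change ranked 74 from the highest. PECAM1-203, of 738 codons, took 42.1%, 45.2% and 84.7% of PECAM1 TPM in brain and 61.0% and 56.2% in spleen, which overlapped. By estimated counts, which favour long transcripts, it held 91.1%, 92.8% and 98.8% in brain and 96.3% and 95.2% in spleen.

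ENG (ENSG00000106991, endoglin, CD105, chr9:127815013-127854658, minus strand) is a co-receptor for bone morphogenetic proteins and transforming growth factor beta. It had 110, 145 and 117 CPM in brain and 62.9 and 64.0 CPM in spleen, so that every brain library was higher. The mean was 124 ± 18.3 CPM in brain and 63.4 ± 0.758 CPM in spleen, with a log2 fold change of 0.97 (SE 0.13, 95% interval 0.68 to 1.27, adjusted p 0.00339 by edgeR). With the mouse share as a covariate the log2 fold change was 0.76 and the adjusted p 0.192.

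Endoglin is made as a long form with a long cytoplasmic tail and a short form in which the last intron is kept, and the ends of both are shown because the forms differ there alone. Lower case marks 30 shared coding bases and capitals the last coding bases of each form (GRCh38 with GENCODE 44, minus strand, 5′ to 3′). The tail of ENG-202 (658 codons) lies at chr9:127815685-127815806 and that of ENG-201 (625 codons) at chr9:127815920-127815942.
ENG-202, long: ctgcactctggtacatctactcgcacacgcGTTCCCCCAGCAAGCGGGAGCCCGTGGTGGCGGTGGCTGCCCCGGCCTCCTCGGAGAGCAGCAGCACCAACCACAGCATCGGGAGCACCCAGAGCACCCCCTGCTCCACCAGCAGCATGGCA
ENG-201, short: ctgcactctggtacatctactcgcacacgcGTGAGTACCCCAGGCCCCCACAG

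The long form took 70.9%, 67.1% and 70.9% of ENG TPM in brain and 49.3% and 52.1% in spleen, with no overlap. How often the shares of other transcripts do not overlap was not counted, and these forms were chosen after their values were seen. The short form took 19.8%, 22.0% and 18.0% in brain and 20.4% and 18.2% in spleen, which overlapped. ENG-205, a transcript of 663 bases with no defined coding sequence, took 8.81%, 9.35% and 6.20% in brain and 21.4% and 26.2% in spleen. By estimated counts ENG-205 held 1.69%, 1.80% and 1.19% in brain and 4.59% and 6.19% in spleen. The long form held 76.8%, 73.2% and 75.6% of estimated counts in brain and 61.3% and 69.0% in spleen, a smaller contrast than by TPM. The usage of the long form had a log2 fold change of 0.20 and an adjusted p of 1 by edgeR's diffSpliceDGE, and of 4 ENG transcripts tested 0 were called and 0 had an unadjusted p under 0.05.

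**Figure D4:**
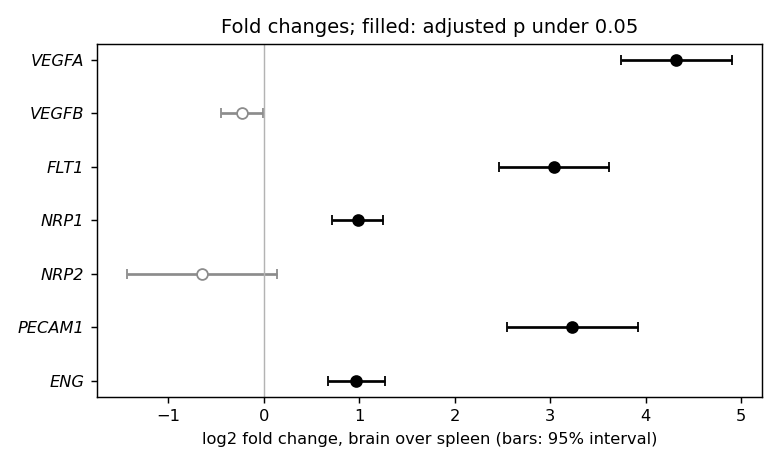
Log2 fold changes of the 7 tested genes, brain over spleen, with 95% intervals. VEGFA, FLT1 and PECAM1 lie above 2 with their whole intervals, NRP1 and ENG lie close to 1, and the interval of NRP2 crosses 0.

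Levels of different genes were compared per length, as TPM on human transcripts alone. In brain the order from the highest mean was VEGFB (80.4 ± 5.80 TPM), ENG (62.5 ± 10.9), NRP1 (23.9 ± 4.22), VEGFA (11.3 ± 4.60), PECAM1 (5.05 ± 2.49), FLT1 (3.84 ± 0.408), NRP2 (0.690 ± 0.447) and KDR (0.00525 ± 0.00910). PECAM1 overlapped between libraries with VEGFA above it and FLT1 below it, while VEGFB and ENG met at 74.9 TPM. In spleen the order was VEGFB (97.0 ± 5.39 TPM), ENG (38.3 ± 6.79), NRP1 (13.2 ± 2.13), NRP2 (1.00 ± 0.530), VEGFA (0.836 ± 0.273), FLT1 (0.629 ± 0.301), PECAM1 (0.462 ± 0.0822) and KDR at 0. Between the spleen libraries NRP2 and VEGFA changed order, as did FLT1 and PECAM1, while VEGFA was above FLT1 in each. The VEGFA values are lower bounds, since only named transcripts enter them.

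Promoters were looked up for the members in a RefSeq table (GRCh38.p14, 250 bases before to 50 after the start), which held 5 of the 8. FLT1 and ENG, the called genes among them, are shown with matches in capitals, each on the minus strand and 5′ to 3′, at chr13:28495079-28495378 and chr9:127854609-127854908.
FLT1 promoter: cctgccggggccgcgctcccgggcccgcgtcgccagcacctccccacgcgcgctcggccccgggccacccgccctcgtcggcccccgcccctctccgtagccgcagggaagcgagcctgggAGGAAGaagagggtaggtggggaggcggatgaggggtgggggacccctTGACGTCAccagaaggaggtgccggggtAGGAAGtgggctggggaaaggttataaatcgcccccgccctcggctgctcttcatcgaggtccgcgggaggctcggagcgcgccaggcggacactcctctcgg
ENG promoter: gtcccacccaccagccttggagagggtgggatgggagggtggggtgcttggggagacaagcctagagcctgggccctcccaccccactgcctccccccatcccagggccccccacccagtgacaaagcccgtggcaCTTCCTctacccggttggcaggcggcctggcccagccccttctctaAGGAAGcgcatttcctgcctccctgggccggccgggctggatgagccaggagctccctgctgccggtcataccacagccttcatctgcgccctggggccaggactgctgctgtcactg
The search covered both strands for ACGTG, the core of the element bound by hypoxia-inducible factors, TGACGTCA, the cyclic AMP response element, and AGGAAG, an ETS-type motif. FLT1 held TGACGTCA 81 bases before its start, and 1.85% of the 35116 promoters in the table hold it. AGGAAG stood 129 and 53 bases before the FLT1 start and 114 (opposite strand) and 68 bases before the ENG start, and 33.6% of promoters hold it. ACGTG was in neither window nor in those of VEGFB, KDR and NRP2, and 21.4% of promoters hold it. A match is a string of letters and does not show binding.

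Of 38 genes that carry the signal of VEGF receptors inside the cell, all tested, 4 were called higher, 0 lower and 34 neither. Of all tested genes, 6.01% were called higher and 3.5% lower. The median log2 fold change of the 38 was -0.019, against 0.0066 over all tested genes. NCK1, an adaptor, averaged 40.7 ± 0.309 CPM in brain and 29.0 ± 0.987 CPM in spleen (log2 fold change 0.49, SE 0.09, adjusted p 0.0162 by edgeR). PRKCA, a protein kinase C, and PPP3CA, a calcineurin subunit, had log2 fold changes of 0.48 and 0.49. With the replicate number as a block only NCK1 remained past the threshold, and the adjusted p of PRKCA and PPP3CA was 0.0702 and 0.0759. Leaving out each library in turn left 0 to 2 genes called higher. NCK1 lost its call without brain replicate 1, brain replicate 2 or spleen replicate 2, with a highest adjusted p of 0.0702, and that of PRKCA and PPP3CA was 0.1503 and 0.188.

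Among 12 class 3 semaphorins and plexins, which share the neuropilins with VEGF, 8 were tested, 2 were called higher and 0 lower, with a median log2 fold change of 0.52. Over all tested genes 6.01% were called higher and 3.5% lower, with a median of 0.0066. PLXNA1, the plexin that signals for neuropilin-bound semaphorins, averaged 85.7 ± 2.62 CPM in brain and 55.4 ± 0.0497 CPM in spleen (log2 fold change 0.63, SE 0.09, adjusted p 0.00486 by edgeR). SEMA3F, a ligand of NRP2, averaged 21.9 ± 1.53 CPM in brain and 14.5 ± 0.401 CPM in spleen (0.60, SE 0.11, adjusted p 0.0159). SEMA3A, a ligand of NRP1, averaged 3.35 ± 0.308 CPM in brain and 1.81 ± 0.528 CPM in spleen and was not past the threshold (0.88, SE 0.25, adjusted p 0.0581). SEMA3F lost its call without brain replicate 1, brain replicate 2 or spleen replicate 1, with a highest adjusted p of 0.0628.

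Of 28 genes of the endoglin and BMP/TGF-beta receptor pathway, ENG included, 25 were tested, 7 were called higher and 0 lower, with a median log2 fold change of 0.30. The shares over all tested genes were 6.01% higher and 3.5% lower, with a median of 0.0066. BMPR1B, a type I BMP receptor, had 15.0, 16.9 and 16.7 CPM in brain and 4.26 and 2.88 CPM in spleen, with no overlap (log2 fold change 2.19, SE 0.19, adjusted p 0.000439 by edgeR). SMAD1, which carries the BMP signal to the nucleus, averaged 53.5 ± 2.61 CPM in brain and 37.8 ± 0.00807 CPM in spleen (0.50, SE 0.10, adjusted p 0.0159). The type II receptors BMPR2 and ACVR2B rose by 0.81 and 0.62, and ID2, a target gene, by 0.66 on the log2 scale. ID1, ID3, SMAD6 and SMAD7 on the same list were not past the threshold, with log2 fold changes of 0.42, -0.11, -0.27 and 0.078. ACVRL1 (ALK1), the endothelial partner of endoglin, had 3, 4 and 4 counts in brain and 3 in each spleen library, and its ligand GDF2 had 0 in all. Neither was tested. Leaving out each library in turn left 2 to 4 genes called. BMPR1B and ENG kept their calls, and the highest adjusted p was 0.0656 for SMAD1, 0.0957 for ACVR2B, 0.0858 for BMPR2 and 0.187 for ID2. Each of these 4 lost its call without brain replicate 1 and without at least 2 further libraries in turn.

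Of 8 genes on the PECAM1 list, 7 were tested, 2 were called higher and 2 lower, with a median log2 fold change of -0.068. Among all tested genes 6.01% were called higher and 3.5% lower, with a median of 0.0066. INPP5D (SHIP1), a lipid phosphatase that binds such inhibitory motifs, rose with PECAM1 and averaged 280 ± 10.96 CPM in brain and 189 ± 4.89 CPM in spleen (0.56, SE 0.10, adjusted p 0.0102 by edgeR). PTPN6 (SHP-1), a tyrosine phosphatase that binds them too, fell and averaged 30.1 ± 1.14 CPM in brain and 49.1 ± 1.59 CPM in spleen (-0.71, SE 0.09, adjusted p 0.00338). PTPN11, also on the list, averaged 180 ± 9.79 CPM in brain and 192 ± 3.20 CPM in spleen and was not past the threshold (-0.095, SE 0.096, adjusted p 0.599 by edgeR). CD38, a surface enzyme and ligand of PECAM1, averaged 151 ± 19.3 CPM in brain and 212 ± 6.27 CPM in spleen (-0.49, SE 0.12, adjusted p 0.0377), and with the replicate block its adjusted p was 0.0508. CD38 also lost its call with any single library left out, with a highest adjusted p of 0.101.

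Of 25 other secreted angiogenic factors and inhibitors, 18 were tested, 5 were called higher and 2 lower, with a median log2 fold change of 0.029. Calls over all tested genes were 6.01% higher and 3.5% lower, with a median of 0.0066. EFNA1, an ephrin ligand that is also cell bound, had 10.9, 18.5 and 16.3 CPM in brain and 1.78 and 1.17 CPM in spleen (log2 fold change 3.38, SE 0.29, adjusted p 0.000415 by edgeR). ADM, the vasodilator adrenomedullin, averaged 7.76 ± 1.69 CPM in brain and 1.32 ± 0.516 CPM in spleen (2.55, SE 0.30, adjusted p 0.00177). ANGPTL4, an inhibitor of lipoprotein lipase, averaged 3.89 ± 0.4202 CPM in brain and 1.09 ± 0.00182 CPM in spleen (1.83, SE 0.23, adjusted p 0.00214). CCN2 rose by 0.75 and CXCL8 by 1.22, and CXCL8 had an adjusted p of 0.0703 with the replicate block. PDGFA, a platelet-derived growth factor chain, fell to 4.15 ± 0.401 CPM in brain, against 12.2 ± 1.09 CPM in spleen (-1.55, SE 0.16, adjusted p 0.000938). SPP1, the adhesive protein osteopontin, fell to 1.10 ± 0.223 CPM in brain, against 2.85 ± 0.577 CPM in spleen (-1.37, SE 0.26, adjusted p 0.0152). With a library left out, SPP1 lost its call without brain replicate 1, brain replicate 2 or spleen replicate 2 (highest adjusted p 0.0701). CCN2 lost it without spleen replicate 1 (0.0555), and CXCL8 with any of the 5 left out (0.138 at most).

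Of 14 factors known to act on the splicing or stability of VEGFA mRNA, all tested, 1 was called higher and 3 lower, with a median log2 fold change of -0.18. Beside them, 6.01% of all tested genes were called higher and 3.5% lower, with a median of 0.0066. ZFP36L2, which binds AU-rich elements and promotes mRNA decay, averaged 383 ± 12.2 CPM in brain and 202 ± 7.76 CPM in spleen (0.93, SE 0.10, adjusted p 0.00108 by edgeR). The RNA-binding protein HNRNPA2B1 and the splicing factors SRSF1 and SRSF2 had log2 fold changes of -0.43, -0.41 and -0.40. With the replicate block 0 of the 3 were called, with adjusted p of 0.0594, 0.0545 and 0.0848. Their calls were also lost with any brain library or spleen replicate 1 left out, with a highest adjusted p of 0.149, 0.142 and 0.143.

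Of 18 human endothelial markers, 12 were tested, 2 were called higher and 0 lower, with a median log2 fold change of 0.18. Of all tested genes, 6.01% were called higher and 3.5% lower. The summed level of the 18 markers was 849 to 886 CPM in brain and 627 to 727 CPM in spleen. Most of it came from ERG, an ETS factor also made by leukaemia cells, and EGFL7. Some markers were present in every library and not past the threshold: TIE1 had 868, 1310 and 995 counts in brain and 883 and 1073 in spleen, and ICAM2 had 2197, 2814 and 2116 in brain and 2941 and 2204 in spleen. SOX18 had 158, 175 and 190 counts in brain and 116 and 183 in spleen, and CLDN5 had 57, 68 and 77 in brain and 52 and 76 in spleen. Others were at or near 0: CDH5 (VE-cadherin) had 0, 0 and 6 counts in brain and 1 and 0 in spleen, TEK had at most 1 count in any library, and ROBO4 and SOX17 had 0 in all. VWF, tested at 9, 19 and 5 counts in brain and 2 and 12 in spleen, was not past the threshold. CD34, a marker of endothelium and of immature blood cells, averaged 2.32 ± 0.543 CPM in brain and 0.502 ± 0.0640 CPM in spleen (2.21, SE 0.31, adjusted p 0.00419 by edgeR). ERG averaged 618 ± 24.4 CPM in brain and 453 ± 38.7 CPM in spleen (0.45, SE 0.10, adjusted p 0.0322), and its adjusted p was 0.0590 with the replicate block. With any brain library or spleen replicate 2 left out ERG lost its call, with a highest adjusted p of 0.115. Mouse transcripts stood as separate entries beside the human ones in the same estimates of each library, and their genes were not analysed here. Whether reads of host endothelium reached the human counts was not tested.

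**Figure D5:**
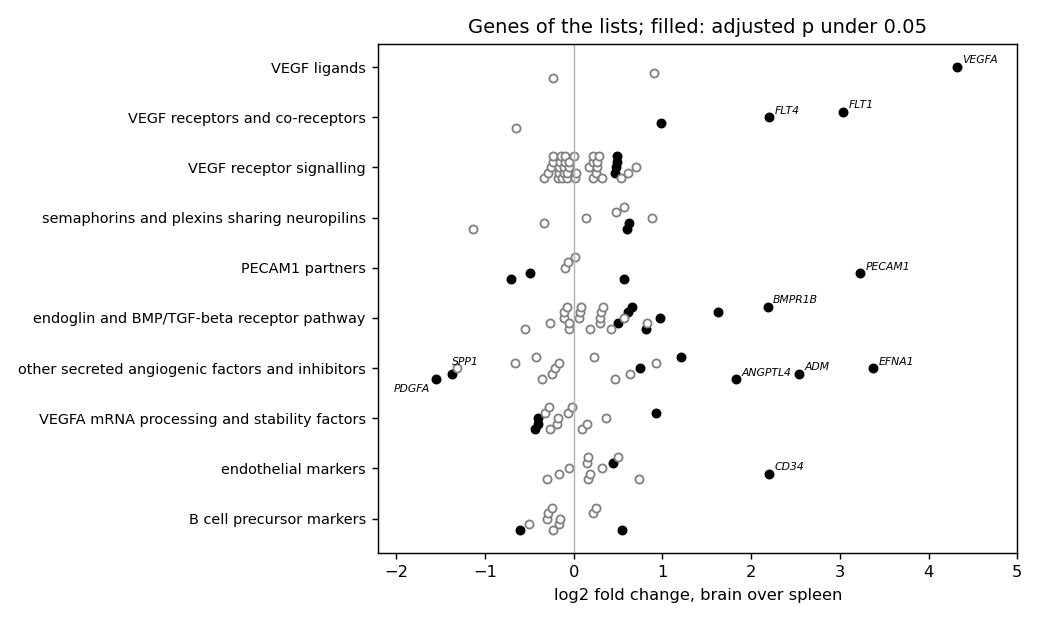
Log2 fold changes, brain over spleen, of the tested genes on each list, with filled points for an adjusted p under 0.05. The ligands and receptors hold VEGFA, FLT1 and FLT4 far to the right, while most signalling genes and endothelial markers lie close to 0.

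Across the lists 31 genes beside the members were called. Of these, 11 remained past the threshold without each library in turn, 22 with the replicate block, and 2, BMPR1B and EFNA1, with every alternative tried. With the mouse share as a covariate 29 were not past it, in a fit that called 114 genes higher and 11 lower in all. The mouse share ran with the site, so in that fit the part of each cannot be told apart.

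For each called member, the 5 genes with the most similar profile over the 5 libraries were found by the root mean square difference of centred log2 CPM values. The search took 1625 of the 1942 called genes, those with a symbol and a mean log2 CPM of at least 1, without the member itself. Among the closest to VEGFA were ELFN2 (0.111), AK4 (0.138), STARD4 (0.455) and CSF3R (0.530). Closest to FLT1 were CHST2 (0.251), SHANK3 (0.260), ABCG1 (0.261), FGF14 (0.321) and STARD4 (0.332). Closest to PECAM1 were ATP6V0A4 (0.125), ERICH3 (0.247), LINC00642 (0.278), PFKFB4 (0.282) and CSF3R (0.294). Genes with smaller changes matched NRP1 and ENG more tightly: ETS1 (0.0454) stood near to NRP1, and GVINP1 (0.0322) and NOTCH1 (0.0361) near to ENG. NRP1 was further followed by TRGV5 (0.0568), ZNF667-AS1 (0.0638) and PRKCH (0.0642), and ENG by SEMA4A (0.0514), SLC2A1 (0.0698) and ZNF423 (0.0703). These distances grow with the size of the change and describe the 5 libraries alone.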

How the data were processed

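Per the labels, libraries were made with a stranded mRNA kit. Tools credited to the submitters' processing notes are kallisto 0.42.4, cutadapt 1.5, bcl2fastq 1.8.4 and DESeq2, with GRCm38 and GRCh38 as builds. How they were ordered, and the strand setting, is not given in the sources used here, so overlapping and antisense genes are uncertain. Per the file headers, the transcript tables of single libraries hold estimated counts and TPM from kallisto, for 199596 human and 104229 mouse transcripts in all. The deposited gene table holds estimated counts as whole numbers, and a second deposited table holds the authors' log2 values (rlog), used as an alternative. Both gene tables also hold 1 column of no sample here, left unused, with which the log2 values could have been scaled jointly.

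Gene identifiers were matched to GENCODE 44, with 56322 (86.4%) found, holding 99.76% of counts. Of human transcripts 191210 (95.8%) matched, and 1139 identifiers listed more than once were summed. TPM was rescaled here to human transcripts.

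Estimated counts were tested with edgeR 4.0.16 in R 4.3.3 (filterByExpr, TMM, quasi-likelihood F test, site as the only term), adjusted by the Benjamini-Hochberg method over 20419 genes, with 3 residual degrees of freedom and a biological coefficient of variation (common to all genes) of 0.148. CPM uses TMM-scaled library sizes, SE is on the log2 scale, and intervals are 95% from the same fit. Transcript usage was tested with diffSpliceDGE on rounded estimated counts. DESeq2 1.42.0 and limma 3.58.1 served as alternatives. Scripts for both fits were tested on simulated data.

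The labels tie a replicate number to an occasion, so brain and spleen replicates 1 and 2 were taken as pairs, and the block was an alternative. The submitters' library names number the spleen libraries otherwise than their titles, so this pairing rests on the titles and is uncertain. The difference of brain replicates 1 and 2 correlated with that of the spleen replicates at r = 0.0747 across 20419 genes, which are not independent.

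The members and lists were chosen with earlier results of these data known. All members were named. From each list the 3 called genes with the smallest p were named. Further called genes, PGF, SEMA3A, FLT4, PTPN11, ID1, ID3, SMAD6, SMAD7, endothelial markers and genes at or near 0 were named after their values were seen. Transcripts of VEGFB, NRP1, PECAM1 and ENG were chosen in that way too. Host cell markers were not analysed here, since no gene names for mouse transcripts were used. Some genes that these rules take are not reported here.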

Additional observations from a re-analysis of the deposited data

How the results depend on the processing

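VEGFA, FLT1 and PECAM1 were called higher under all 14 alternatives, with log2 fold changes of 2.29 to 4.45, 1.62 to 3.50 and 1.70 to 3.61 and highest adjusted p of 0.00481, 0.0112 and 0.0324. NRP1 (0.619 to 1.04) and ENG (0.603 to 1.05) were called under all but the fit with the mouse share as a covariate, where the log2 fold change was 0.895 for NRP1 and 0.762 for ENG and the members called higher numbered 3. With the replicate block VEGFA had a log2 fold change of 4.43 and no member's call changed. NRP2 ran from -1.11 without spleen replicate 1 to 0.0461 without spleen replicate 2, and VEGFB kept its sign (-0.392 to -0.157) and was never called. Leaving out each library gave 515 to 871 genes higher and 146 to 828 lower, against 1228 and 714 with all. Genes lower numbered 1289 by DESeq2's Wald test and 1337 with no filter, and the mouse share covariate left 114 higher and 11 lower. The share of calls that were higher was 63.2% with all libraries, 91.2% with the covariate, 77.9% without brain replicate 1 and 51.3% without the spleen library of replicate 2. The lowest values of VEGFA, FLT1 and PECAM1 came from limma on the authors' log2 values, a scale that shrinks differences of low counts. VEGFA's 3.63 from summed transcripts follows from its unnamed transcripts, which that sum leaves out. Usage of the VEGFA transcripts and of full-length FLT1 was called under no alternative, and the usage log2 fold change of that FLT1 form ran from 0.388 to 1.23 with each library left out. Counts of 60 to 121 in spleen limit the form shares there. KDR, untested, has no alternative value. The cause of these changes was not tested.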
